A study of Hordeum vulgare with 64 samples.

Results

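Expression of 7 barley genes of the circadian clock and the photoperiod pathway was followed through a salt and a waterlogging experiment. They are LHY/CCA1 (HORVU7Hr1G070870), Ppd-H1, also named PRR37 (HORVU2Hr1G013400), TOC1 (HORVU6Hr1G057630), GI (HORVU3Hr1G021140), ELF3 (HORVU1Hr1G094980), LUX (HORVU3Hr1G114970) and PRR95 (HORVU5Hr1G081620). These 7 rows were taken by identifier out of the 43050 rows of the expression tables. The files list identifiers without names, so each gene name rests on the list that paired it with its identifier and was not checked against an annotation.

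Leaves and roots were sampled from 2 varieties, Nasonijo (NN), which is sensitive to both stresses, and TX9425 (TX), which is tolerant. Seedlings of both varieties shared a pot in a greenhouse with 16 h of light and 8 h of dark, and stress began at the three-leaf stage. Salt groups received 300 mM NaCl and were taken at 1 h, 24 h and 10 d, and waterlogging groups stood in 1 cm of water above the soil and were taken at 1 h, 72 h and 2 w. Each experiment had its own unstressed controls at 0 h, which gave 32 groups of 2 replicates, or 64 libraries, while the methods state 3 biological replicates. No source used here gives the clock hour of any sampling. Only 0 h controls were used. By the labels, samples at 1 h were 1 h older than control. Those at 24 h, 72 h, 10 d and 2 w came whole days after it, and so nominally at its clock hour. Whether they were taken at that hour is not stated. Stress and clock hour therefore cannot be told apart, and at the later times neither can the age of the plant.

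The plant clock is a loop of transcription factors that repress each other in turn through the day. In plants kept in light and dark, LHY/CCA1 transcripts peak around dawn, those of the pseudo-response regulators PRR95 and Ppd-H1 follow during the day, and those of GI, TOC1 and LUX rise towards dusk. In barley, Ppd-H1 is a main promoter of flowering under long days, and in Arabidopsis GI also holds back SOS2, a kinase that helps the plant export sodium. A clock gene therefore marks the hour at which a tissue was frozen as well as any effect of treatment.

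Values are FPKM, the fragments of a gene scaled by the length of its exons and by the mapped fragments of its library. FPKM hold no totals, and relative depth, read from the steps between low values, ranged from 0.201 to 1.02 of a reference library in waterlogging leaves. It ranged from 0.543 to 1.06 in waterlogging roots, from 0.458 to 1.03 in salt leaves and from 0.502 to 1 in salt roots. Rows with ENSRNA identifiers took 0.610% to 36.1% of the FPKM in waterlogging leaves, against at most 0.469% in salt leaves, 0.658% in salt roots and 14.6% in waterlogging roots. Libraries kept their tissue: 11 rows seen in every salt leaf and no salt root had a median of 11.9 to 37.1 FPKM in waterlogging leaves and of 0 in every waterlogging root. Some salt libraries held rows of the other variety. Of 20 rows seen only in TX among waterlogging roots, 9 exceeded 0.5 FPKM in replicate 1 of NN leaves at 1 h of salt and 8 in replicate 2 of NN roots at 10 d, and of 17 rows seen only in NN, 5 did so in replicate 1 of TX roots at 10 d.

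All 7 genes passed the filter on low values (at least 0.5 FPKM in at least 2 libraries) in each of the 4 sets of experiment and tissue. Differences were tested with limma on log2(FPKM + 1), which understates the change of low genes, and a call required both a log2 change of more than 1 and a p under 0.05 after Benjamini-Hochberg adjustment over all rows tested. The p-values rest on the spread between the 2 libraries of a group, pooled over all groups of a fit and drawn towards a trend over all rows. The SE of a gene against control is therefore the same in NN and TX, however far apart its libraries lay in either. The labels do not say whether the 2 libraries of a group came from separate plants. In bulk tissue fewer cells of a type and less RNA per cell cannot be told apart.

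LHY/CCA1, the dawn MYB repressor, had the largest rise of the 7 genes in salt leaves, at 24 h in both varieties. In NN leaves it stood at 3.46 and 4.54 FPKM in the 2 controls, 23.4 and 26.2 at 1 h, 484 and 520.2 at 24 h and 20.7 and 18.7 at 10 d. In TX leaves it stood at 19.3 and 4.08 FPKM in the controls, 20.1 and 31.7 at 1 h, 476 and 368 at 24 h and 15.2 and 20.6 at 10 d. The 4 libraries of 24 h were far above all 12 others, and the other times overlapped between the varieties. From control to 24 h the mean rose 126-fold in NN, from 4.0 ± 0.770 to 502 ± 25.4 FPKM (SD, n = 2; log2 change 6.66, SE 0.48, adjusted p = 2.36e-05 by limma), and 36.1-fold in TX (log2 change 5.37, SE 0.48, adjusted p = 8.58e-05). The TX fold was 104 without control replicate 1 and 21.9 without control replicate 2. LHY/CCA1 also rose in NN leaves at 1 h (log2 change 2.38, SE 0.48, adjusted p = 0.0177) and 10 d (log2 change 2.06, SE 0.48, adjusted p = 0.00536). In TX leaves its changes at 1 h and 10 d were 1.37 (adjusted p = 0.0615) and 0.88 (adjusted p = 0.197), and that at 1 h was called with median-ratio scaling (1.75, adjusted p = 0.0334).

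**Figure D1:**
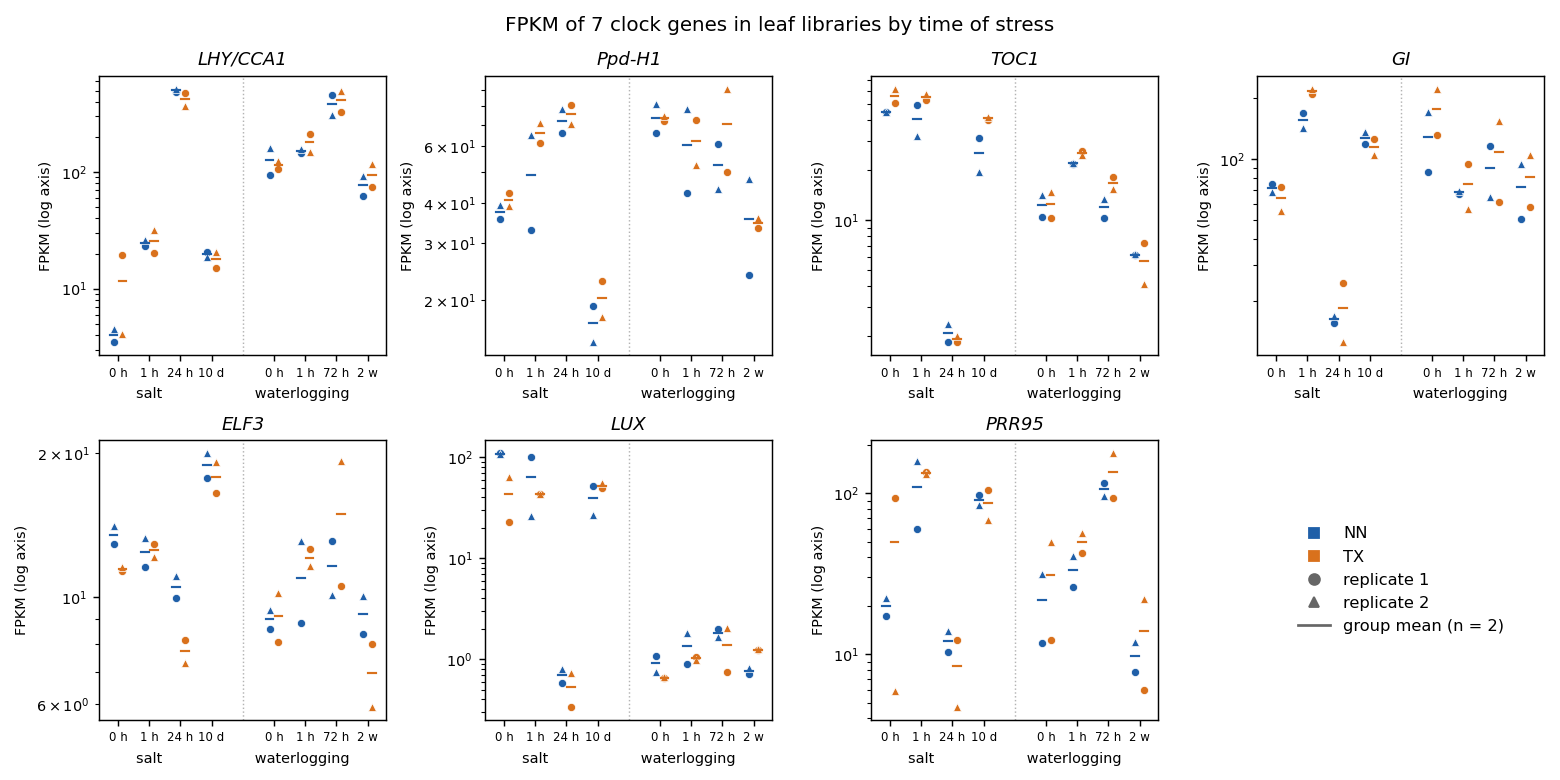
FPKM (log axis) of the 7 genes in every leaf library, by experiment and time, with NN in blue, TX in orange, circles for replicate 1, triangles for replicate 2 and short lines for the mean of 2. In salt the 24 h libraries stood apart, with LHY/CCA1 at 368 to 520 FPKM and LUX at 0.335 to 0.805 FPKM, while LUX did not exceed 2.02 FPKM in any waterlogging leaf.

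The dusk genes ran the other way at 24 h of salt. LUX, a MYB-like factor of the evening complex, stood at 109 and 107 FPKM in NN controls and 0.586 and 0.805 at 24 h, and at 22.7 and 62.96 FPKM in TX controls and 0.335 and 0.725 at 24 h. Its mean fell 155-fold in NN (log2 change −6.01, SE 0.57, adjusted p = 1.30e-04) and 80.8-fold in TX (log2 change −4.68, SE 0.57, adjusted p = 3.81e-04). The TX fold was 42.9 without control replicate 2 and 128 without replicate 2 of 24 h. The 24 h values rest on 11 to 26 reads a library, as read from the steps, against up to 4371 in other salt leaves. TOC1, a pseudo-response regulator that represses LHY/CCA1 in Arabidopsis, went from 44.95 and 44.6 FPKM to 1.85 and 2.36 in NN, a 21.2-fold fall (log2 change −3.88, SE 0.24, adjusted p = 8.41e-06). In TX, TOC1 went from 50.3 and 61.9 FPKM to 1.84 and 2.0 (log2 change −4.28, SE 0.24, adjusted p = 3.58e-06). At 1 h and 10 d TOC1 stood at 19.5 to 57.1 FPKM in both varieties, and neither time was called. In NN leaves at 10 d LUX stood at 51.2 and 26.8 FPKM, below both controls and near the threshold (log2 change −1.52, SE 0.57, adjusted p = 0.0487): the call was lost with a pseudocount of 0.1 (adjusted p = 0.0617) and without the filter (adjusted p = 0.0776). In TX leaves at 10 d it stood at 49.2 and 55.2 FPKM.

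GI moved in both directions within a day of salt. In NN leaves it stood at 75.2 and 68.8 FPKM in controls, 168 and 142 at 1 h, 15.5 and 16.8 at 24 h and 118 and 136 at 10 d. In TX leaves the values were 72.3 and 55.3 FPKM, 208 and 222, 24.5 and 12.4 and 124 and 104. Both replicates at 1 h were above both controls in each variety, and both at 24 h were below them. GI rose at 1 h in NN (log2 change 1.09, SE 0.26, adjusted p = 0.0303) and in TX (log2 change 1.75, SE 0.26, adjusted p = 0.00195), and fell at 24 h in NN (log2 change −2.09, SE 0.26, adjusted p = 8.86e-04) and in TX (log2 change −1.79, SE 0.26, adjusted p = 9.58e-04). At 10 d its log2 changes of 0.81 in NN and 0.84 in TX had adjusted p of 0.0278 and 0.0349 but were below the fold set for a call.

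The day regulators were less uniform. Ppd-H1 stood at 35.8 and 39.4 FPKM in NN controls, 65.9 and 78.3 at 24 h and 19.2 and 14.8 at 10 d, and at 42.97 and 39.04, 80.4 and 70.6 and 22.9 and 17.8 FPKM in TX. Its mean was highest at 24 h and lowest at 10 d in both varieties, and of these steps the fall in NN at 10 d was called (log2 change −1.11, SE 0.27, adjusted p = 0.00685), with −0.99 in TX just short of the fold (adjusted p = 0.0207) and past it with a pseudocount of 0.1 (−1.02, adjusted p = 0.0218). At 1 h Ppd-H1 stood at 33.0 and 65.1 FPKM in NN and at 61.5 and 71 in TX, where it overlapped 24 h. The changes at 24 h, 0.92 in NN and 0.86 in TX, were called as rises with median-ratio scaling (1.03, adjusted p = 0.0329, and 1.39, adjusted p = 0.00551), as was that at 1 h in TX (1.10, adjusted p = 0.0222). PRR95 was not called in salt leaves at any time, and its spread was large: it stood at 93.6 and 5.95 FPKM in the 2 TX controls and at 59.7 and 158 in NN leaves at 1 h. Its mean was above control at 1 h and 10 d and below it at 24 h in both varieties, with log2 changes of 2.24, −0.68 and 2.14 in NN and 2.39, −1.56 and 1.74 in TX (SE 0.92). ELF3, which in Arabidopsis bridges LUX and ELF4 in the evening complex, kept within 7.28 to 20.0 FPKM and was not called, although its lowest means were at 24 h and its highest at 10 d in both varieties.

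In all, 4 of the 7 genes were called at 24 h of salt in NN leaves, where 6.34% of all rows tested were, and 4 of 7 in TX leaves (17.3% of rows), with LHY/CCA1, TOC1, GI and LUX called in both. At 1 h, 2 were called in NN (4.63%) and 1 in TX (11.3%), and at 10 d 3 in NN (27.8%) and 0 in TX (16%, with 3 members at an unadjusted p under 0.05). The 8 calls at 24 h were kept when any 1 library was left out. Those at 1 h in NN were lost without replicate 1 at that time, the library with TX rows (LHY/CCA1 2.45, adjusted p = 0.0695, GI 0.97, adjusted p = 0.131), and without either NN control, with LHY/CCA1 at adjusted p of 0.104 and 0.119 and GI at 0.115 and 0.202. At 10 d in NN the LUX call was lost without replicate 2 of that group (−1.06, adjusted p = 0.270) or either control (adjusted p = 0.148 and 0.136), and that of Ppd-H1 without replicate 2 at 10 d (−0.94, adjusted p = 0.0584). TOC1 at 10 d in NN was gained without replicate 1 of that time (−1.16, adjusted p = 0.00429).

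The 2 TX leaf controls differed from each other and set several TX results. Without replicate 1 of the TX controls, in which LHY/CCA1 and PRR95 were high, TX leaves gained LHY/CCA1 and PRR95 at 1 h (2.37, adjusted p = 0.00189, and 4.27, adjusted p = 0.00237) and LHY/CCA1, GI and PRR95 at 10 d (1.88, adjusted p = 0.00179, 1.03, adjusted p = 0.0389, and 3.62, adjusted p = 0.00187). Without replicate 2 they gained PRR95 at 24 h (−3.44, adjusted p = 0.00152) and Ppd-H1 at 10 d (−1.05, adjusted p = 0.0397), and Ppd-H1 at 10 d was also gained without replicate 1 of TX at 10 d (−1.16, adjusted p = 0.0465).

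**Figure D2:**
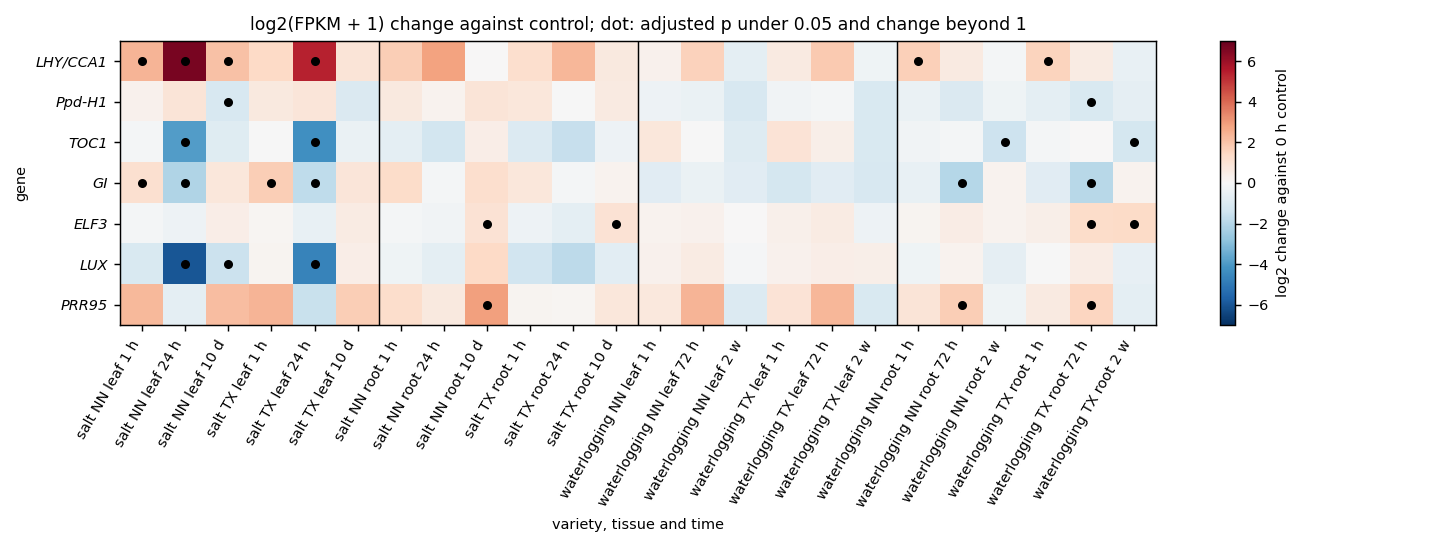
Log2 change of each gene (rows) against its own 0 h control on the log2(FPKM + 1) scale, for 24 comparisons of variety, tissue and time (columns), with red for higher, blue for lower and a dot for a called change. The darkest cells were LHY/CCA1 and LUX in salt leaves at 24 h, and the waterlogging leaves held no dot.

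In salt roots 5 of the genes had narrower ranges than in salt leaves, the exceptions being ELF3 and Ppd-H1, and Ppd-H1 was near the level of the filter. LHY/CCA1 stood at 13.3 and 11.8 FPKM in NN controls and 109 and 83.3 at 24 h, and at 6.75 and 35.9 and 92.8 and 75.3 in TX. Both 24 h values were above both controls in each variety, but the log2 changes of 2.83 and 2.32 were not called (SE 1.00, adjusted p = 0.480 and 0.361). TOC1 stood at 52.5 and 55.9 FPKM in NN controls and 21.6 and 22 at 24 h, and at 62.9 and 49.2 and 18.5 and 16.5 in TX. These lay below both controls too, with log2 changes of −1.27 (adjusted p = 0.598) and −1.62 (adjusted p = 0.204). At 1 h and 24 h 0 of the 7 genes were called in either variety by limma, beside 0.0538% and 0.157% of all rows in NN and 1.80% and 0.816% in TX. At an unadjusted p under 0.05 there were 2 and 2 members in NN, and 0 and 4 in TX.

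Replicates of salt roots differed in several clock genes at once. At 1 h LHY/CCA1 stood at 22.3 and 83.1 FPKM in NN and 115 and 11.8 in TX, while TOC1 stood at 59.7 and 18.9 and 17.8 and 42.7 and LUX at 8.22 and 1.26 and 1.32 and 5.47. In each pair the library high in LHY/CCA1 was low in TOC1 and LUX, so the replicates differed in opposite directions for genes of opposite phase. The same split was seen in TX roots at 10 d, where replicate 1 had LHY/CCA1 at 48.8 and TOC1 at 29.2 FPKM and replicate 2 had 13.4 and 65.8. That pair also differed over all rows (median gap 0.615 on the log2 scale, r = 0.84), and its replicate 1 held NN rows. In the TX root controls, with LHY/CCA1 at 6.75 and 35.9 FPKM, TOC1 went the other way (62.9 and 49.2). LUX there went the same way as LHY/CCA1 (6.59 and 11.8).

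PRR95 and ELF3 were the genes called in salt roots against control, both at 10 d. PRR95 stood at 11.3 and 9.48 FPKM in NN controls and 78.8 and 86.95 at 10 d, a 7.96-fold rise of the mean (log2 change 2.88, SE 0.38, adjusted p = 6.78e-04). ELF3 rose in NN from 5.71 and 4.72 to 11.5 and 11.6 FPKM (log2 change 1.02, SE 0.25, adjusted p = 0.0134) and in TX from 6.31 and 6.10 to 15.5 and 11.99 FPKM (log2 change 1.02, SE 0.25, adjusted p = 0.0484). That made 2 of 7 in NN, where 23.3% of rows were called, and 1 of 7 in TX (3.52%). ELF3 lost its call without any 1 of the 4 NN libraries (adjusted p = 0.0696 and 0.0730 without replicates 1 and 2 at 10 d, 0.0539 and 0.105 without those of the control), and in TX without replicate 1 at 10 d (0.85, adjusted p = 0.138) or control replicate 1 or 2 (adjusted p = 0.0650 and 0.0740). In TX neither a pseudocount of 0.1 (1.13, adjusted p = 0.0599) nor median-ratio scaling (0.87, adjusted p = 0.0370) gave the call.

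**Figure D3:**
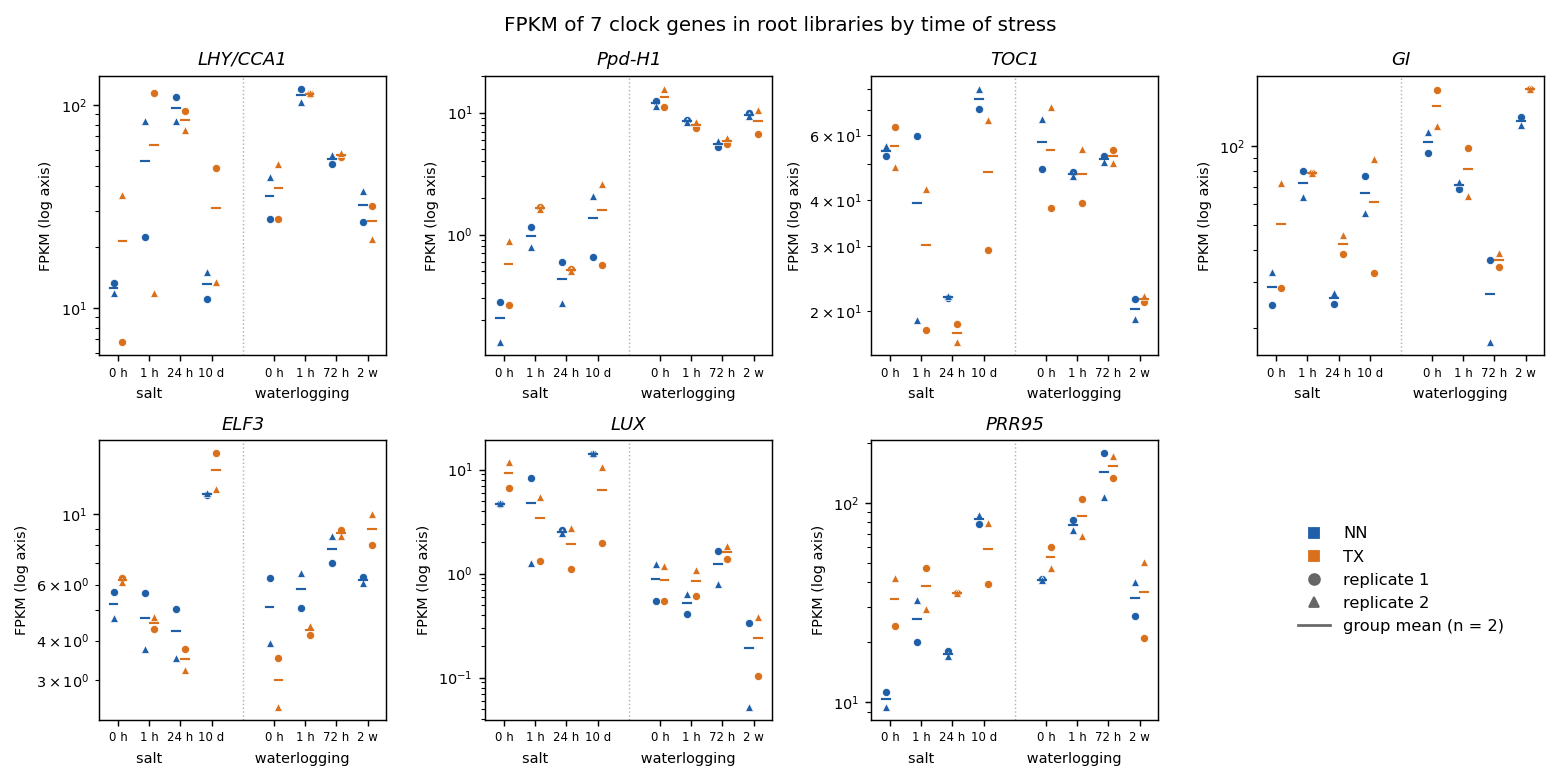
FPKM (log axis) of the 7 genes in every root library, drawn as for the leaves. Replicates of salt roots at 1 h lay apart for LHY/CCA1 (22.3 and 83.1 FPKM in NN, 115 and 11.8 in TX), and Ppd-H1 did not exceed 2.61 FPKM in salt roots but was 5.22 to 15.8 FPKM in waterlogging roots.

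Waterlogging leaves held LHY/CCA1 high at every time, controls included. It stood at 93.97 and 162 FPKM in NN controls, 147 and 159 at 1 h, 454 and 311 at 72 h and 61.8 and 93.3 at 2 w. In TX it stood at 106 and 125, 211 and 148, 330.3 and 498 and 73.8 and 117 FPKM. The 4 libraries of 72 h were above all others. The log2 changes at 72 h were 1.60 in NN (SE 0.40, adjusted p = 0.124) and 1.81 in TX (SE 0.40, adjusted p = 0.0529), neither of them called.

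PRR95 was also highest at 72 h, with 116 and 95.5 FPKM in NN against 11.7 and 31.7 in controls, and 93.3 and 177 FPKM in TX against 12.4 and 50.1. Its log2 changes were 2.38 (adjusted p = 0.223) and 2.31 (adjusted p = 0.167), with an SE of 0.72. In both varieties the higher 72 h value of PRR95 and of LHY/CCA1 came from the replicate richer in ENSRNA rows. These rows took 20.3% of the FPKM in replicate 1 of NN and 19.3% in replicate 2 of TX. TOC1 did not exceed 26.0 FPKM in any waterlogging leaf, and its 4 highest values were those of 1 h and its 4 lowest those of 2 w. LUX kept to 0.645 to 2.02 FPKM, or 7 to 79 reads. GI varied between the replicates of a group, as in the TX controls at 131 and 220.2 FPKM. At 1 h it lay below both controls in each variety without a call. It stood at 66.96 and 69.6 FPKM in NN, against 85.9 and 169 in controls, and at 93.8 and 56.5 in TX. At 72 h GI overlapped the controls in both varieties. Ppd-H1 went from 65.9 and 81.5 FPKM in NN controls to 23.9 and 47.4 at 2 w, and from 71.95 and 74.8 to 33.5 and 35.8 in TX, with log2 changes of −1.10 and −1.06 that were not called (adjusted p = 0.281 and 0.387).

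By limma, 0 of the 7 genes were called in waterlogging leaves at any time in either variety, where few rows of any kind were. The shares of all rows at 1 h, 72 h and 2 w were 0.744%, 0.762% and 0.655% for NN, and 0.716%, 1.61% and 0.192% for TX. Each variety had 5 of 21 tests of the members at an unadjusted p under 0.05. The count stayed at 0 without any 1 library, and without the 3 libraries richest in ENSRNA rows, 2 of which were of 72 h.

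In waterlogging roots LHY/CCA1, GI, PRR95 and TOC1 were called in both varieties, each at 1 time. LHY/CCA1 stood at 27.4 and 43.99 FPKM in NN controls and 120.3 and 104 at 1 h, and at 27.3 and 50.96 and 113 and 114 in TX. All 4 libraries of 1 h were above the other 12 root libraries, and the rise was called in NN (log2 change 1.66, SE 0.31, adjusted p = 0.00320) and TX (log2 change 1.58, SE 0.31, adjusted p = 0.00331). At 72 h and 2 w it was back between 21.8 and 58.0 FPKM and was not called.

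GI fell and PRR95 rose at 72 h in roots. GI stood at 94.5 and 113 FPKM in NN controls and 36.4 and 17.6 at 72 h (log2 change −1.99, SE 0.30, adjusted p = 4.72e-04), and at 165 and 120.0 and 34.2 and 38.8 FPKM in TX (log2 change −1.92, SE 0.30, adjusted p = 5.58e-04). At 2 w it was at 129.8 and 121 FPKM in NN and 167 and 167 in TX, above both controls in each variety but not called. PRR95 stood at 41.4 and 41.2 FPKM in NN controls and 177 and 107 at 72 h (log2 change 1.72, SE 0.38, adjusted p = 0.00494), and at 60.3 and 47.3 and 133 and 171 FPKM in TX (log2 change 1.48, SE 0.38, adjusted p = 0.0109). Both genes lay on 1 side of both controls at 72 h in both varieties.

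TOC1 was unlike GI in roots, since its fall came at 2 w. It stood at 48.3 and 66.2 FPKM in NN controls, 52.5 and 50.6 at 72 h and 21.5 and 19.1 at 2 w (log2 change −1.44, SE 0.27, adjusted p = 0.00560). In TX it stood at 37.9 and 71.2, 54.4 and 50.4 and 21.1 and 22.04 FPKM (log2 change −1.23, SE 0.27, adjusted p = 0.0126). The 4 libraries of 2 w were the lowest of the 16. LUX was at 0.333 and 0.0519 FPKM in NN and 0.104 and 0.378 in TX at 2 w, or as few as 2 reads, and was not called.

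Ppd-H1 and ELF3 were called in TX roots alone, a contrast between varieties that its own test did not call. Ppd-H1 went from 11.1 and 15.8 FPKM to 5.51 and 6.17 at 72 h in TX (log2 change −1.06, SE 0.21, adjusted p = 0.00247), and from 12.5 and 11.4 to 5.22 and 5.89 in NN, just short of the fold (log2 change −0.99, SE 0.21, adjusted p = 0.00388). ELF3 went from 3.54 and 2.47 FPKM to 8.92 and 8.51 at 72 h (log2 change 1.29, SE 0.22, adjusted p = 0.00109) and 8.0 and 9.99 at 2 w in TX (log2 change 1.33, SE 0.22, adjusted p = 0.00523), and from 6.28 and 3.92 to 7.02 and 8.52 and 6.35 and 6.08 in NN. For the response of ELF3, TX minus NN was 0.75 at 72 h (adjusted p = 0.466) and 1.06 at 2 w (adjusted p = 0.510), and for that of Ppd-H1 it was −0.08 at 72 h (adjusted p = 0.947).

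Counted over 1 h, 72 h and 2 w, the calls in waterlogging roots numbered 1, 2 and 1 of the 7 genes for NN, beside 15.9%, 23.4% and 11% of all rows, and 1, 4 and 2 for TX, beside 18.2%, 22.8% and 10.2%. At 1 h, 72 h and 2 w in NN and at 1 h in TX the share of members called was close to that of all rows. The calls of LHY/CCA1, GI and ELF3 were kept without any 1 library. That of PRR95 at 72 h was lost in NN without replicate 1 of that time (1.36, adjusted p = 0.0502) and in TX without replicate 2 of that time (1.30, adjusted p = 0.0763) or of the control (1.31, adjusted p = 0.0596). TOC1 at 2 w was lost in NN without control replicate 2 (−1.21, adjusted p = 0.0513) and in TX without control replicate 2 (−0.79, adjusted p = 0.0926) or replicate 1 of 2 w (−1.20, adjusted p = 0.0640), and the TX value fell short of the fold with median-ratio scaling (−0.99, adjusted p = 0.0139). Ppd-H1 in TX fell short of the fold without replicate 1 of 72 h (−0.99, adjusted p = 0.0242) or control replicate 2 (−0.83, adjusted p = 0.0184). Calls were gained for LHY/CCA1 in TX at 72 h without control replicate 2 (1.02, adjusted p = 0.0273), for GI in TX at 1 h without replicate 1 of that time (−1.11, adjusted p = 0.0421), for PRR95 in TX at 2 w without replicate 2 of that time (−1.30, adjusted p = 0.0462), and for Ppd-H1 in NN at 72 h without replicate 2 of that time (−1.06, adjusted p = 0.0170) or of the control (−1.05, adjusted p = 0.0135) or with a pseudocount of 0.1 (−1.09, adjusted p = 0.00358).

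The log2 ratio of LHY/CCA1 to TOC1 within a library, with 0.1 FPKM added to each, sets a dawn gene against a dusk gene. It was −3.89 to 7.95 over the 16 salt leaves, and LHY/CCA1 exceeded TOC1 in 4 of them, the libraries of 24 h. It was 2.58 to 5.44 over the 16 waterlogging leaves, all of them with LHY/CCA1 above TOC1. In salt roots the ratio was −3.20 to 2.68, with LHY/CCA1 above TOC1 in 7 of 16, and in waterlogging roots −0.82 to 1.52, with 10 of 16. At 24 h of salt the mean was 7.84 in NN leaves and 7.70 in TX leaves, against 2.12 in NN roots.

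**Figure D4:**
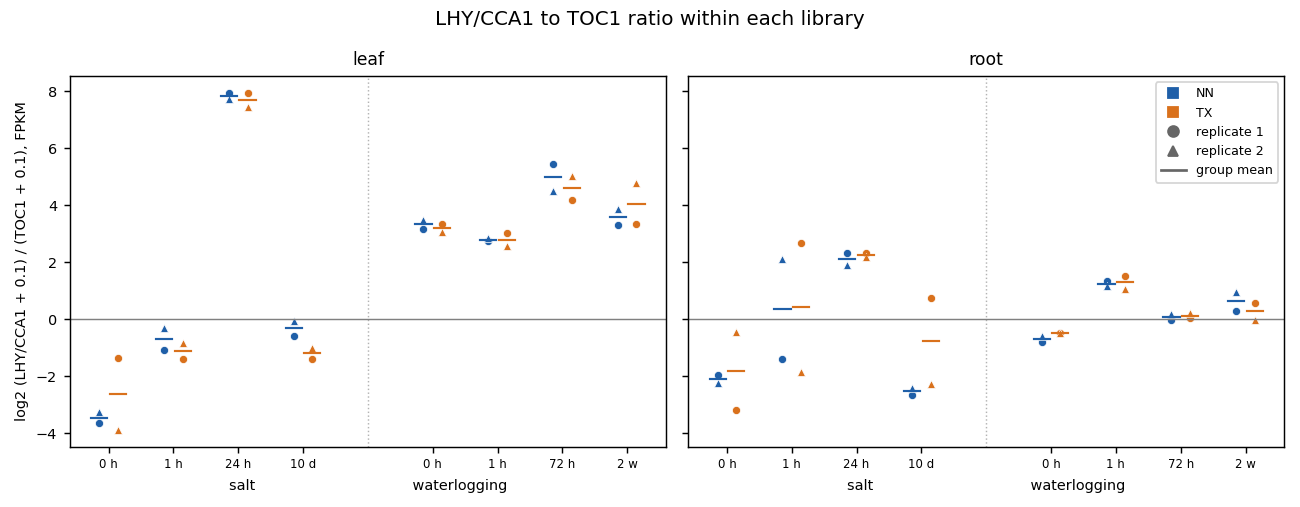
Log2 ratio of LHY/CCA1 to TOC1 (0.1 FPKM added to each) in every library, for leaves at left and roots at right, with NN in blue, TX in orange, circles and triangles for replicates 1 and 2 and short lines for the mean of 2. Of the salt leaves those of 24 h alone were above 0, and the waterlogging leaves lay at 2.58 to 5.44.

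The 2 sets of 0 h controls, both unstressed, differed in these genes. The tables were normalized apart, so the values are set side by side without a test. LHY/CCA1 was 31.98-fold higher in the waterlogging than in the salt controls of NN leaves and 9.89-fold higher in those of TX leaves. LUX was 119-fold and 65.1-fold lower, and TOC1 3.64-fold and 4.46-fold lower. The TX folds turned on the salt controls: without replicate 1 that of LHY/CCA1 was 28.4 and that of LUX 95.7, and without replicate 2 they were 5.99 and 34.6. Ppd-H1 in roots was 0.130 to 0.881 FPKM in the 4 salt controls and 11.1 to 15.8 FPKM in the 4 waterlogging controls. Over the 8 unstressed leaf libraries of both tables LHY/CCA1 ran from 3.46 to 162 FPKM with no stress applied. The 24 h salt leaves (368 to 520 FPKM) lay above that span. So did the 72 h waterlogging leaves (311 to 498 FPKM) and replicate 1 of TX waterlogging leaves at 1 h (211 FPKM). The span covers 2 sets of controls at hours not given, so it does not bound the level of unstressed plants over a day. Whether the hour of sampling differed between the experiments was not tested, since no source used here gives it.

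Between leaf and root controls, taken from the same seedlings, Ppd-H1 was the gene called in every case. It was higher in leaves by 5.0 on the log2 scale in NN and 4.76 in TX in the salt experiment (adjusted p = 3.18e-10 and 7.10e-10), and by 2.52 and 2.38 in the waterlogging experiment (adjusted p = 4.33e-06 and 8.67e-06). LUX was higher in leaves of the salt controls of NN (log2 change 4.26, SE 0.69, adjusted p = 3.30e-05) and TX (log2 change 1.98, SE 0.69, adjusted p = 0.0248). In the waterlogging controls LHY/CCA1 was higher in leaves (NN 1.80, TX 1.60) and TOC1 higher in roots (NN −2.13, TX −1.99), with adjusted p of 5.20e-04, 0.00144, 4.32e-06 and 9.95e-06. GI in NN of the salt experiment (1.31, adjusted p = 0.00827), and ELF3 there and in TX of the waterlogging experiment (1.23 and 1.35, adjusted p = 1.77e-05 and 4.78e-04), were also higher in leaves.

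Thus 4 and 2 of 7 genes differed by tissue in the salt controls of NN and TX, beside 39.3% and 34.2% of all rows, and 3 and 4 of 7 in the waterlogging controls, beside 29.8% and 33.9%. The LUX difference in TX was lost without leaf control replicate 2 (1.27, adjusted p = 0.240) or root control replicate 1 (1.61, adjusted p = 0.150), and that of GI in NN without leaf or root control replicate 1 (adjusted p = 0.0502 and 0.0745). PRR95 in TX of the salt experiment, at −0.35 with both replicates, turned with the leaf control left out: it was lower in leaves without replicate 1 (−2.24, adjusted p = 0.00279) and higher without replicate 2 (1.53, adjusted p = 0.0305). Calls were gained for GI in TX without salt root control replicate 2 (1.12, adjusted p = 0.0373), for ELF3 in NN without waterlogging root control replicate 1 (1.02, adjusted p = 0.0197) or with median-ratio scaling (1.19, adjusted p = 0.0259) and for PRR95 in TX without waterlogging leaf control replicate 2 (−2.03, adjusted p = 0.0211).

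Few differences between the sensitive and the tolerant variety were called. Between the controls of TX and NN, 1 gene was called in 1 of 4 sets: PRR95 in salt roots, at 24 and 41.9 FPKM in TX and 11.3 and 9.48 in NN (log2 change 1.53, SE 0.38, adjusted p = 0.0384), beside 5.19% of rows. It was lost without any 1 of the NN controls or control replicate 2 of TX (adjusted p = 0.165, 0.218 and 0.259). In salt leaves, waterlogging leaves and waterlogging roots 0 were called by limma (9.07%, 1.10% and 2.88% of rows), with 1, 0 and 1 at an unadjusted p under 0.05. Without replicate 2 of the TX leaf controls, salt leaves gained LHY/CCA1 (2.03, adjusted p = 0.00108), LUX (−2.20, adjusted p = 0.0234) and PRR95 (2.19, adjusted p = 0.0183).

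The response to stress, time against control, was compared between the varieties directly, as TX minus NN. By limma 0 of 84 such tests over the 7 genes were called, and 4 had an unadjusted p under 0.05. In salt leaves 0.298%, 3.50% and 2.05% of all rows were called at 1 h, 24 h and 10 d, in salt roots 0.215%, 0.0224% and 1.39%, in waterlogging roots 0.00908%, 0.472% and 0.114%, and in waterlogging leaves 0% at all 3 times. In salt roots at 10 d, 5 of 17 NN rows exceeded 0.5 FPKM in replicate 1 of TX. In replicate 2 of NN 8 of 20 TX rows did. With TX replicate 2 left out, TX at 10 d rests on that replicate 1. The change nearest to a call was PRR95 in salt roots at 10 d (log2 change −2.09, SE 0.54, adjusted p = 0.0710). It passed without replicate 2 of TX at 10 d (−2.59, adjusted p = 0.00546), when LUX did so too (−3.14, adjusted p = 0.0389), or without control replicate 1 of TX (−2.48, adjusted p = 0.0124). In salt leaves, without control replicate 2 of TX, the response of LHY/CCA1 passed at 1 h, 24 h and 10 d (−2.01, adjusted p = 0.0107, −2.29, adjusted p = 0.00528, and −2.17, adjusted p = 0.00866) and that of PRR95 at 24 h (−2.76, adjusted p = 0.0309). The SE of these differences ranged from 0.21 to 1.42 on the log2 scale, and a missed threshold does not show that the varieties responded alike.

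The change against control was also compared between the tissues, as leaf change minus root change, in a test added after seeing the data. In the salt experiment 0, 2 and 2 of the 7 genes were called in NN at 1 h, 24 h and 10 d, where 0.523%, 2.21% and 25.7% of all rows were. In TX 0, 1 and 1 were called, beside 7.63%, 4.78% and 11.9%. At 24 h the genes were TOC1 and, in NN, LUX, which fell further in leaves. At 10 d they were Ppd-H1, which was lower against its control in leaves, and, in NN, LUX. LUX at 10 d in NN was lower than control in leaves and higher in roots (mean 14.2 against 4.70 FPKM). In the waterlogging experiment 0 were called in NN (2.81%, 10% and 5.60% of rows), and ELF3 was called in TX at 2 w (3.67%, 10.4% and 3.24%). At an unadjusted p under 0.05 there were 3 of 21 tests in waterlogging NN. The log2 change of LHY/CCA1 at 24 h of salt was higher in leaves than in roots by 3.83 in NN and 3.05 in TX, without a call (adjusted p = 0.108 and 0.138).

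Replicates of a group differed by more than 1 on the log2 scale in 6 of 56 cases (7 genes in 8 groups) in salt leaves, 13 of 56 in salt roots, 4 of 56 in waterlogging leaves and 2 of 56 in waterlogging roots. The widest gaps were 3.77 for PRR95 in TX salt control leaves and 3.18 for LHY/CCA1 in TX salt roots at 1 h. The median gap over all rows tested lay between 0.144 and 0.343 in the 8 groups of salt leaves and between 0.153 and 0.615 in those of salt roots. In the TX salt controls the leaf library of replicate 1 and the root library of replicate 2 were the ones high in LHY/CCA1 (19.3 against 4.08 FPKM in leaves, 35.9 against 6.75 in roots), so the number of a replicate did not mark the same state in both tissues.

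The other members were ranked by how their pattern followed that of LHY/CCA1 over the 64 libraries, after the mean of each experiment and tissue was taken off, among 16958 rows. LUX had a Pearson r of −0.78 and was the 3rd most unlike row, and TOC1 had −0.67 and was the 21st. GI stood at −0.46, ELF3 at −0.29, PRR95 at −0.0004 and Ppd-H1 at 0.33. The 2 most like rows were HORVU4Hr1G040290 (r = 0.89, 23.4 to 337 FPKM in salt leaves) and HORVU5Hr1G081190 (0.88), and the most unlike were HORVU4Hr1G085250 (−0.82, 1.89 to 623 FPKM in salt leaves) and HORVU7Hr1G082510 (−0.80). The libraries share their groups and scaling, and the 24 h salt leaves weigh most in these values, which are given as a description.

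Within each set of 16 libraries the relation was not the same. LHY/CCA1 and TOC1 had r = −0.93 in salt leaves and −0.92 in salt roots, but 0.47 in waterlogging leaves and 0.51 in waterlogging roots. LHY/CCA1 and PRR95 had r = 0.94 in waterlogging leaves and −0.39 in salt leaves, and TOC1 and LUX had 0.96 in salt leaves, 0.91 in salt roots and 0.81 in waterlogging roots.

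**Figure D5:**
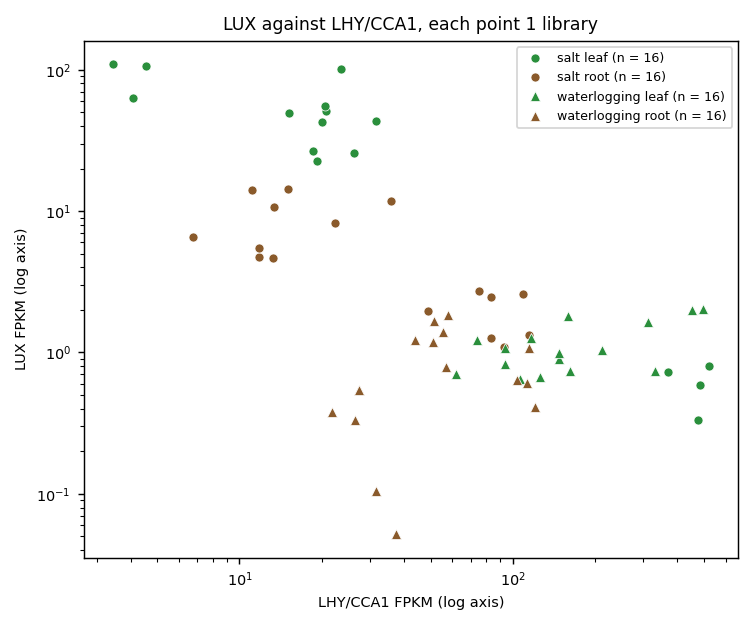
LUX against LHY/CCA1 in FPKM (both axes log), each point 1 library, with salt as circles, waterlogging as triangles, leaves in green and roots in brown (16 libraries each). Salt leaves ran from high LUX and low LHY/CCA1 in the controls to LUX below 1 FPKM at 24 h. Waterlogging libraries kept LUX at or below 2.02 FPKM over their own range of LHY/CCA1, 21.8 to 498 FPKM.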

How the data were processed

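The authors deposited FPKM, per the file headers, in 1 table for salt and 1 for waterlogging, each with 43050 rows and 32 libraries. Tools named in the submitters' processing notes are HISAT, HISAT2 and featureCounts 1.5.0. The build and the annotation were not given in the sources used here. Other sheets of the waterlogging workbook hold 82 further value columns, some of them the authors' own comparisons, and were not used.

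Libraries were grouped by experiment, variety, tissue and time from the sample labels, with 2 replicates a group. Each experiment and tissue was fitted on its 16 libraries with limma 3.58.1 (R 4.3.3, trended empirical Bayes) on log2(FPKM + 1). No scaling was added, and rows had to reach 0.5 FPKM in 2 or more libraries, which 19782 to 22314 did. Leaf and root were compared in a fit over the 32 libraries of an experiment. Calls needed a log2 change of more than 1 and a p under 0.05 after Benjamini-Hochberg adjustment. Scripts were tested on simulated data. Alternatives were a pseudocount of 0.1, no filter, median-ratio scaling, HORVU rows at equal totals, a replicate block and leaving out each replicate. Leaving out libraries in doubt, and the tests of leaf against root responses, were added after seeing the data.

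All 7 members are named, with the 2 rows most like and the 2 most unlike LHY/CCA1. The members and lists were chosen with earlier results of these data known. Of the row identifiers, 0 were found in the RefSeq barley gene table, so further clock genes (PRR73, PRR59, RVE6, RVE8, ELF4, ZTL, FKF1, LNK1, CHE, CK2 and COP1) were not analysed here and no sequence is shown. Relative depth came from the commonest ratio between low values of libraries. Python 3.11.15, pandas 2.3.3, numpy 2.4.6 and matplotlib 3.10.9 were also used.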

Additional observations from a re-analysis of the deposited data

Results flagged for a closer look

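Changes against control were compared between leaves and roots of the same variety, as leaf change minus root change, in a fit over both tissues added after seeing the data, and 7 differences passed the test. At 24 h of salt TOC1 fell further in leaves than in roots, by −2.61 on the log2 scale in NN (adjusted p = 0.0216, where 2.21% of all rows passed) and −2.67 in TX (adjusted p = 0.0128, 4.78%). LUX did so in NN at 24 h (−5.32, adjusted p = 0.00435). At 10 d the difference of LUX in NN was −2.93 (adjusted p = 0.0297, 25.7%). There LUX was lower than control in leaves but higher in roots, at 13.99 and 14.39 FPKM against 4.66 and 4.75 in root controls. Ppd-H1 was lower against its control in leaves than in roots at 10 d of salt in NN (−2.02, adjusted p = 0.00493) and TX (−1.61, adjusted p = 0.0364, 11.9%), and its root levels there were at or below 2.61 FPKM. ELF3 differed at 2 w of waterlogging in TX (−1.68, adjusted p = 0.0166, 3.24%), where it rose in roots.

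LUX at 24 h and Ppd-H1 at 10 d in NN kept the call without any 1 library. TOC1 at 24 h in NN lost it without any 1 of the 8 libraries (adjusted p = 0.0603 to 0.0856), and in TX without root replicate 1 at 24 h (0.0593). LUX at 10 d in NN lost it without any 1 library other than leaf replicate 1 at 10 d (adjusted p = 0.0659 to 0.117), and with a pseudocount of 0.1 (−3.11, adjusted p = 0.0563). Ppd-H1 in TX lost it without any 1 library other than root replicate 1 at 10 d or root control replicate 2 (adjusted p = 0.0526 to 0.128), with a pseudocount of 0.1 (adjusted p = 0.0846) and with median-ratio scaling (adjusted p = 0.0540). ELF3 lost it without leaf or root replicate 2 at 2 w or leaf or root control replicate 2 (adjusted p = 0.0648 to 0.0869), and with median-ratio scaling (adjusted p = 0.0707). Other differences between tissues passed only with 1 library left out, all in TX: at 24 h of salt GI without leaf replicate 1 (−2.14, adjusted p = 0.0477) or root control replicate 2 (−2.33, adjusted p = 0.0187) and LHY/CCA1 without root control replicate 1 (4.17, adjusted p = 0.0251), at 1 h of salt GI without root control replicate 1 (1.62, adjusted p = 0.0340), PRR95 without leaf control replicate 1 at 1 h and 10 d (4.05, adjusted p = 0.00301, and 2.83, adjusted p = 0.0151) and without leaf control replicate 2 at 24 h (−3.59, adjusted p = 0.00342), and TOC1 at 1 h of waterlogging without root control replicate 1 (1.58, adjusted p = 0.0247).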

How the results depend on the processing

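Calls of the 7 genes against control in TX roots under salt went from 1 to 0 with a pseudocount of 0.1 and with median-ratio scaling. They did so too without the libraries in doubt. These were replicate 2 of NN and replicate 1 of TX salt roots at 10 d, and 3 waterlogging leaf libraries. Replicate 1 of NN salt leaves at 1 h, with 9 of 20 TX rows above 0.5 FPKM, was kept in that setting. The 1 call between the salt root controls of TX and NN went to 0 without the filter and with median-ratio scaling, which also raised the calls in TX salt leaves from 5 to 8. Responses that differed between leaf and root went from 2 to 1 in salt TX with a pseudocount of 0.1 and with median-ratio scaling, from 4 to 3 in salt NN with the former (LUX at 10 d), and from 1 to 0 in waterlogging TX with the latter. Scaling moved the median change of all rows by up to 0.53 on the log2 scale (TX salt leaves at 24 h), where LHY/CCA1, TOC1, GI and LUX stayed called. HORVU rows at equal totals changed no call. The cause was not tested.

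Leaving out 1 library at a time gave 6 to 10 calls in NN salt leaves, 1 to 2 in NN salt roots, 5 to 10 in TX salt leaves, 0 to 1 in TX salt roots, 3 to 5 in NN and 5 to 8 in TX waterlogging roots, and 0 in waterlogging leaves. Between tissues in controls it gave 3 to 4 in salt NN, 1 to 3 in salt TX, 3 to 4 in waterlogging NN and 4 to 5 in waterlogging TX. Between varieties it gave 0 to 3 in salt leaf controls and 0 to 1 in salt root controls, and 0 to 4 and 0 to 2 for responses in salt leaves and roots. Responses that differed between tissues numbered 2 to 4 in salt NN, 1 to 3 in salt TX and 0 to 2 in waterlogging TX. PRR95 between leaf and root of the TX salt controls reversed from −0.35 to 1.53 without leaf control replicate 2, and was −2.24 without replicate 1.

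With 1 FPKM added, the log2 ratio of LHY/CCA1 to TOC1 at 24 h of salt was 7.34 in NN and 7.17 in TX leaves, and −0.47 in TX waterlogging root controls. Replicate numbers did not mark a pairing shared by all groups. The difference of replicate 1 minus replicate 2 over all rows was compared between groups. It correlated above 0.1 in 4 to 13 of 28 pairs of groups per set. In waterlogging leaves this r ran from −0.68 to 0.64. The replicate block changed 1 call, LUX in NN salt leaves at 10 d (−1.52, adjusted p = 0.0610), with 8 calls there in place of 9. A pseudocount of 0.1 ended that call too (adjusted p = 0.0617), as did leaving out the filter (0.0776).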
